A study of Mus musculus with 2 samples.

Results

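The metallothionein genes Mt1, Mt2 and Mt3 were followed as unique molecular identifiers (UMIs, 1 per captured transcript) and as the share of cells with a UMI, across the cell classes of the arcuate nucleus and median eminence at the base of the mouse hypothalamus. They are 3 of the 29230 genes listed in the tables, and they were chosen by name, with their pattern in these libraries known, so their levels are a description. All mice were of the CD-1 strain, 7 to 8 weeks old. The wild-type (WT) library was made from 7 pooled mice and the other from a pool of 6 mice labelled Irx5-/- (here Irx5KO), Irx5 being a homeobox transcription factor gene. Live cells were sorted and captured by Drop-seq, a droplet method that tags the 3' end of each transcript, and nothing in the tables ties a cell to a mouse. Each genotype has 1 library, so differences stand without replicates and no test was made. Intervals are 95% intervals that cover counting error only.

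Metallothioneins are small, cysteine-rich proteins that bind zinc and copper and buffer the free metal in the cell. Mt1 and Mt2 are made in most tissues, and their transcription is raised by the metal-sensing factor MTF-1, by glucocorticoids and by oxidative stress. Mt3, also called growth inhibitory factor, is made mainly in the brain, where it binds zinc and copper in neurons and glia and responds far less to metal than the other genes do.

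All 3 genes lie side by side on the plus strand of mouse chromosome 8 (GRCm38, the assembly of the mm10 build), each with 3 exons. Mt3 spans positions 94152607 to 94154146, Mt2 spans 94172664 to 94173568 and Mt1 spans 94179082 to 94180327. Their coding sequences are shown because they give the trait that names the family and show how alike the genes are that the counting had to keep apart. Codons for cysteine are in capitals, and each sequence runs from the start codon to the stop codon in the GENCODE vM21 transcripts.
Mt1 coding: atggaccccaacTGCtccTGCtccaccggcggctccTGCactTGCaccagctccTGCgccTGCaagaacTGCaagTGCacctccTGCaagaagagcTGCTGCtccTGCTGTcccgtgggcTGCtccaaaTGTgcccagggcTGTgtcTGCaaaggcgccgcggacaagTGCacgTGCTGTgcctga
Mt2 coding: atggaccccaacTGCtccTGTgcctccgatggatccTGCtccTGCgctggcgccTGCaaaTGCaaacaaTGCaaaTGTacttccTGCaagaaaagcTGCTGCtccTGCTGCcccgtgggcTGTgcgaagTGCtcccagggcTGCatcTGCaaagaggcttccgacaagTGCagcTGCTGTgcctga
Mt3 coding: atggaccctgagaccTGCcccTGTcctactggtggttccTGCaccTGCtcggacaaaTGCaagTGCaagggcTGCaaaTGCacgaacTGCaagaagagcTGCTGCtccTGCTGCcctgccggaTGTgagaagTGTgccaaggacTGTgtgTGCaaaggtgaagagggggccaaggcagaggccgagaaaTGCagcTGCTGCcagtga

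Each coding sequence holds 20 cysteine codons, of 61 codons in Mt1 and in Mt2 and of 68 in Mt3. In aligned coding bases Mt1 and Mt2 were 79.6% identical, Mt1 and Mt3 73.7% and Mt2 and Mt3 75.3%, with 21 bases of Mt3 absent from the others. The stretches after the stop codon, which 3' tags are most likely to hold, shared less, with 65.4% of aligned bases identical between Mt1 and Mt2, 54.1% between Mt2 and Mt3 and 45.4% between Mt1 and Mt3. The longest run shared there was 10 bases, and no other gene's transcript matched the last 300 bases of any of the 3 at 90% identity over 60 bases or more. An antisense gene, Gm45774, spans positions 94170748 to 94173412 on the minus strand and overlaps part of Mt2. No source used here says whether the counting used strand, so UMIs from the overlap cannot be told apart without it. Both annotated 3' ends lie outside the overlap, that of Gm45774 at 94170748 and that of Mt2 at 94173568. Gm45774 had 7 UMIs in WT and 10 UMIs in Irx5KO.

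The 250 bases before each RefSeq start (GRCm38.p6) are shown because Mt1 and Mt2 followed each other across classes more closely than either followed Mt3. Whether these bases have a part in that was not tested. The core of the metal response element, the site bound by MTF-1, is in capitals. It was searched as TGCACNC and TGCGCNC on both strands.
Mt1, chr8:94178839-94179088: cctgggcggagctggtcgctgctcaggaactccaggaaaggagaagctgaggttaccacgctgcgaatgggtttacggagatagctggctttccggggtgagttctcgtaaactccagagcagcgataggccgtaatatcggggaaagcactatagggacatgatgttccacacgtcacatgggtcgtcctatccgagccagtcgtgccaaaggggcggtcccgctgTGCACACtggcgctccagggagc
Mt2, chr8:94172368-94172617: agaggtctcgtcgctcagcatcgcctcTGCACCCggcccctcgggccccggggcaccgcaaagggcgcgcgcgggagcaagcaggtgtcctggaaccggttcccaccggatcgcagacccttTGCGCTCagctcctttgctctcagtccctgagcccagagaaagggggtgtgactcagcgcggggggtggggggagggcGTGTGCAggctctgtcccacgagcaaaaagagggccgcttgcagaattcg
Mt3, chr8:94152357-94152606: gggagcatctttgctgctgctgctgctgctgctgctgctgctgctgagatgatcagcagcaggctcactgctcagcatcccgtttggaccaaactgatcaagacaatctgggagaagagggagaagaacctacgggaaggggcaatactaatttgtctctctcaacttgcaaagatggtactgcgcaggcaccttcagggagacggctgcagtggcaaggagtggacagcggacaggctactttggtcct

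In these windows Mt1 held 1 core, 23 bases before the start, Mt2 held 3 and Mt3 held 0. Of 32851 promoter windows of the same length, 21.4% held at least 1 core and 1.26% held 3 or more. With 50 bases after the start included, Mt1 held 3, Mt2 held 4 and Mt3 held 1, against 25.7% of promoters with at least 1 and 1.97% with 3 or more. The annotated starts decide these counts, and GENCODE places the starts of Mt1 and Mt2 at other bases than RefSeq does. The TATA box letters TATAAA occurred 0 times in each window before the start, and 12.4% of the promoter windows held them. Cores beyond these windows were not counted, so the counts are not the number of cores in each promoter. A match is only a match of letters and was not tied to binding.

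After filtering there were 1841 WT cells with 3960089 UMIs and 1949 Irx5KO cells with 4915775 UMIs, with a median of 1621 and 1692 UMIs per cell. Only 1 barcode sequence occurred in both libraries. Irx5 itself had 13 UMIs in 11 WT cells (3.28 CPM, UMIs per 1000000 UMIs of the cells concerned) and 0 UMIs in Irx5KO, which allows up to 0.610 CPM. No source used here gives the deleted stretch, and tags from outside that stretch would check nothing. All cells fell into 13 classes named from marker genes, among them oligodendrocyte precursor cells (OPC), committed oligodendrocyte precursors (COP) and vascular leptomeningeal cells (VLMC). The epithelial-like class drew 52 of its 91 cells from a cluster led by keratin genes with no fixed marker among its 10 leading genes. Besides vessel genes, the leading genes of endothelial-like cells held Lcn2, a gene of inflammation, and the haemoglobin gene Hba-a1. Those of microglia-like cells held Cd74 and H2-Aa, genes of antigen presentation.

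Over all cells the level of Mt3 was lower in the Irx5KO library, while Mt2 was at nearly the same level in both. Because 3' ends were counted, 1 molecule counts once whatever its length, and no length was divided out. Mt3 had 4004 UMIs (1011 CPM, interval 980 to 1043) in WT and 2470 UMIs (502 CPM, 483 to 523) in Irx5KO, 2.01-fold lower (1.91 to 2.12). For Mt1 there were 4410 UMIs (1114 CPM) and 4335 UMIs (882 CPM), a ratio of 0.792 (0.759 to 0.826). For Mt2 there were 1679 UMIs (424 CPM) and 2055 UMIs (418 CPM), a ratio of 0.986 (0.924 to 1.05). These ratios are of summed UMIs, and for Mt1 the mean over cells of each cell's own level gave a log2 ratio of 0.000499. Of 14382 genes with at least 50 UMIs over both libraries, 21.8% were at least 1.5-fold apart, 9.85% lower in Irx5KO and 12% higher. Nothing is read from that share about Mt3, which was chosen for this contrast.

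The libraries differed in their mix of cells, and the metallothioneins differ widely between classes. Ependymal-like cells, which line the ventricle with beating cilia, made up 4.78% of the WT library (88 cells) and 1.03% of the other (20 cells). For neuron-like cells these shares were 34.1% (627 cells) and 46.0% (896 cells). With each class held at its WT level, the Irx5KO cells would have held 4229.8 Mt3 UMIs, and the 2470 counted were 0.584 of that. The same ratio of counted to expected UMIs was 1.11 for Mt1 and 1.21 for Mt2.

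In WT each gene had its own order of classes. Mt1 was highest in ependymal-like cells at 4683 CPM (755 UMIs, interval 4355 to 5029). Next came pars tuberalis-like cells, the hormone cells at the pituitary stalk, at 3069.9 CPM, and tanycyte-like cells, the glia of the ventricle floor, at 2842 CPM, whose intervals overlapped. Epithelial-like cells followed at 2368 CPM, with an interval overlapping that of tanycyte-like cells, and oligodendrocyte-like cells, the myelin makers, stood below them at 1626 CPM. The intervals of neighbours then overlapped from oligodendrocyte-like cells down to VLMC-like cells, fibroblasts of the meninges and large vessels, at 264 CPM. Neuron-like cells were lowest at 91.1 CPM (77.7 to 106).

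Mt2 was highest in WT epithelial-like cells at 2148 CPM (147 UMIs, 1815 to 2525). Pars tuberalis-like cells at 1409 CPM, ependymal-like cells at 1389 CPM, tanycyte-like cells at 1319 CPM and astrocyte-like cells at 923 CPM had overlapping intervals from one to the next. Each of the other classes was at 302 CPM or below, and neuron-like cells were again lowest at 31.5 CPM.

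Mt3 in WT was highest in ependymal-like cells at 5799 CPM (935 UMIs, 5433 to 6183). Tanycyte-like cells at 2093 CPM and astrocyte-like cells at 1846 CPM overlapped. OPC-like cells at 1043 CPM, pars tuberalis-like cells at 809 CPM and neuron-like cells at 646 CPM (609.7 to 684) overlapped from one to the next. Of the 135 Mt3 UMIs in pars tuberalis-like cells, 32 were in 1 cell. Neuron-like cells were thus sixth of the 13 classes for Mt3, where they were last for Mt1 and Mt2. Below them lay microglia-like cells at 199.9 CPM, 11 of whose 15 UMIs were in 1 cell, and epithelial-like and COP-like cells at 190.0 and 183 CPM. Oligodendrocyte-like cells at 63.9 CPM, VLMC-like cells at 58.7 CPM and mural-like cells, the contractile cells of vessels, at 14.6 CPM (1 UMI) were lowest.

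In the Irx5KO library, Mt1 and Mt2 were again lowest or near lowest in neuron-like cells, at 95.2 and 40.5 CPM, and highest in endothelial-like cells only through 1 cell. Mt3 was highest in ependymal-like cells at 3832 CPM, followed by astrocyte-like cells at 1469 CPM and tanycyte-like cells at 1321 CPM, whose intervals overlapped. After a gap came OPC-like cells at 486 CPM, pars tuberalis-like cells at 485 CPM and neuron-like cells at 352 CPM, again with overlapping neighbours.

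**Figure D1:**
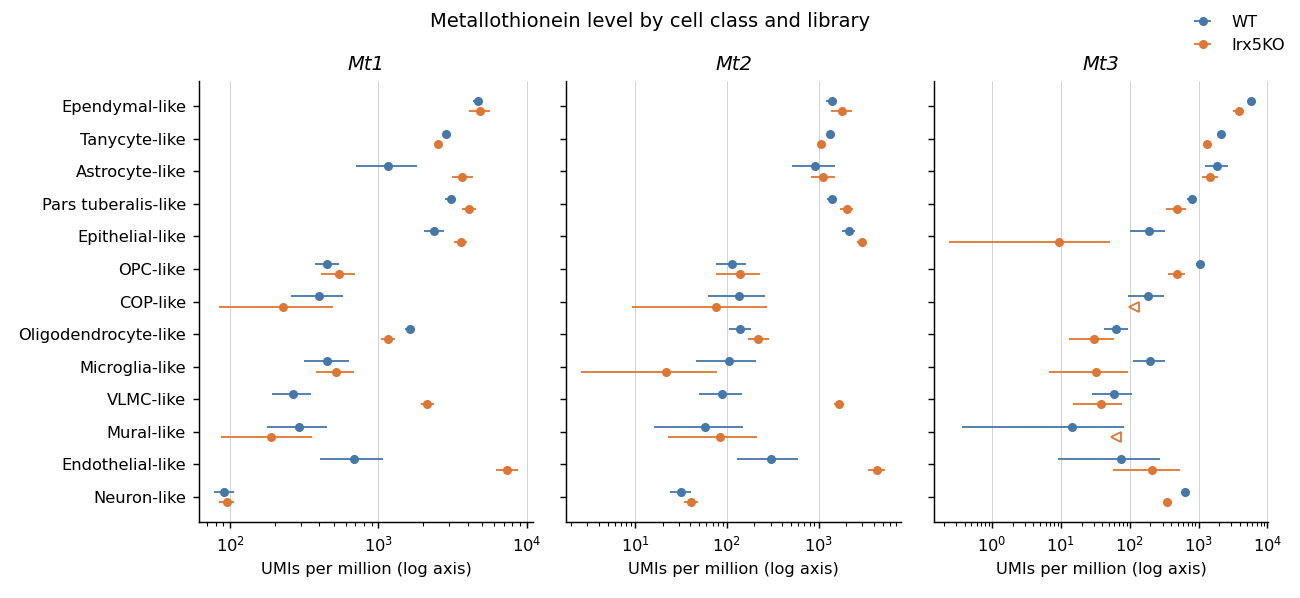
Level of Mt1, Mt2 and Mt3 in CPM (x, log axis) in 13 cell classes (y) of the WT library (blue) and the Irx5KO library (orange). Points are summed UMIs with 95% Poisson intervals and open triangles are upper limits where 0 UMIs were counted. Mt3 is to the left in Irx5KO in 11 of 13 classes, the others being endothelial-like cells and mural-like cells with their upper limit, and Mt1 and Mt2 are far to the right in Irx5KO VLMC-like cells.

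The share of cells with a UMI gave the same picture at 1 fixed depth. With every cell thinned to 1000 UMIs, 100% of 73 WT ependymal-like cells, 77.0% of 278 tanycyte-like cells, 62.1% of 132 OPC-like cells and 38.9% of 514 neuron-like cells had an Mt3 UMI. In mural-like cells, the class with the least Mt3, the share was 0 of 40 cells, with an exact upper bound of 8.81%, at a median depth of 1160.5 UMIs against 2129 UMIs in neuron-like cells. Without thinning, 57.4% of 627 neuron-like cells and 1.79% of 56 mural-like cells had an Mt3 UMI. For Mt1 the thinned share was 79.9% of tanycyte-like cells, 59.3% of 162 oligodendrocyte-like cells and 6.42% of neuron-like cells, and 19.0% of neuron-like cells without thinning. Thinned Mt2 was in 61.9% of tanycyte-like and 1.95% of neuron-like cells. Mural-like cells had thinned shares of 20% for Mt1 and 2.5% for Mt2, above those of neurons. No class was shown to lack these 2 genes, so the part of free RNA in their neuronal UMIs was not tested.

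The makeup of the family differed by class. In WT neuron-like cells Mt3 gave 84.1% of the 1393 metallothionein UMIs (82.0% to 85.9%, exact binomial), and in OPC-like cells 64.9% of 422. In oligodendrocyte-like cells Mt1 gave 88.9% of 745 UMIs and Mt3 3.49%. These cells had 11.6 Mt1 UMIs for each Mt2 UMI (8.85 to 15.5). Epithelial-like cells had 1.10 Mt1 UMIs for each Mt2 UMI (0.876 to 1.39), tanycyte-like cells 2.15 and ependymal-like cells 3.37. So the pair Mt1 and Mt2, neighbours in the genome, kept no fixed ratio across classes.

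**Figure D2:**
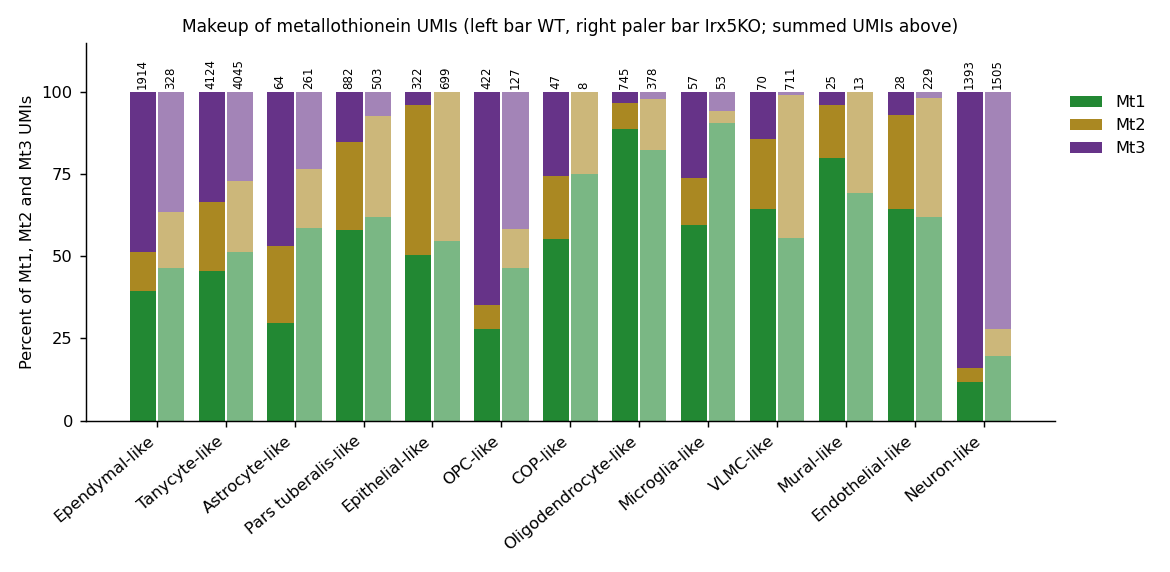
Percent of the metallothionein UMIs given by Mt1 (green), Mt2 (ochre) and Mt3 (purple) in each cell class (x), with WT as the left bar and Irx5KO as the right, paler bar of each pair. Summed UMIs stand above the bars. In neuron-like cells Mt3 makes up 84.1% (WT) and 72.2% (Irx5KO), and Mt1 88.9% and 82.3% in oligodendrocyte-like cells.

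Within classes, Mt3 was lower in the Irx5KO library in 11 of 13, a count of directions alone. Among these, the interval of the ratio included 1 in astrocyte-like, oligodendrocyte-like and VLMC-like cells. Microglia-like cells had only 15 Mt3 UMIs in WT and 3 in Irx5KO. The 20 WT endothelial-like cells had 2 Mt3 UMIs and the 15 Irx5KO ones had 4. Mural-like cells had 1 UMI in WT (14.6 CPM) and 0 UMIs in Irx5KO, which allows up to 62.7 CPM, so no direction is given there. Mt1 was lower in 4 classes and higher in 9, and Mt2 lower in 3 and higher in 10. The intervals of both ratios included 1 in neuron-like, ependymal-like, OPC-like, COP-like, microglia-like and mural-like cells. That of Mt2 also did so in astrocyte-like cells. Ratios are given for the 6 classes that have 50 or more cells on both sides, and the other classes by their levels side by side. Clusters within a class are smaller, so their ratios come with fewer cells.

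In neuron-like cells Mt3 was at 646 CPM (1171 UMIs) in WT and 352 CPM (1086 UMIs) in Irx5KO, a log2 ratio of -0.88 and a ratio of 0.544 (0.501 to 0.592). The thinned share of cells with an Mt3 UMI was 38.9% in WT (34.7% to 43.3%) and 26.4% in Irx5KO (23.3% to 29.6%). Cells with 10 or more Mt3 UMIs made up 3.35% of the WT and 0.781% of the Irx5KO class, and the highest cell held 21 UMIs in WT and 15 in Irx5KO. Tanycyte markers, from a class with more Mt3, summed to 1347 CPM (WT) and 1013 CPM (Irx5KO) in neurons, with 9 of 9 above 0 in both. Ependymal markers summed to 48.6 and 42.4 CPM there, with 7 of 7 above 0 in both. Their part in the result was not tested. Among the 10910 genes measured in this class, 18.9% differed by 1.5-fold or more, 6.48% lower in Irx5KO and 12.4% higher.

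Clustering the neuron-like cells again, with the metallothioneins kept out of the genes used, gave 11 clusters, and Mt3 was lower in Irx5KO in 11 of them. Levels ran from 238 to 940 CPM in WT and from 122 to 522 CPM in Irx5KO, and 9 of the 11 intervals lay below 1. In 4 of the 11 clusters both libraries had 50 or more cells, and there 4 of 4 intervals lay below 1. All clusters come from the same 2 libraries, so these counts are not repeats of the difference. The Agrp-like neurons, which drive feeding, had 84 Mt3 UMIs in 13 WT cells (940 CPM) and 50 UMIs in 44 Irx5KO cells (218 CPM). Kndy-like neurons, the kisspeptin cells that pace reproductive hormone release, had 911 and 379 CPM. SCN-like neurons, marked by Vip and Nms as in the circadian clock nucleus, were low in both at 284 and 122 CPM. The lowest WT level, 238 CPM, was in an unnamed cluster led by Cck and Pdyn, which had 183 CPM in Irx5KO. That cluster had the highest neuronal Mt1, 249.8 CPM for WT and 293 CPM for Irx5KO. An unnamed cluster led by Cartpt, with the stress genes Hspa1a, Fos and Junb also among its leading genes, had 781 and 381 CPM of Mt3.

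For Mt1 and Mt2 no stable difference was seen in neuron-like cells. Mt1 was at 91.1 CPM (165 UMIs) and 95.2 CPM (294 UMIs), a ratio of 1.05 (0.861 to 1.27), and Mt2 at 31.5 CPM (57 UMIs) and 40.5 CPM (125 UMIs), a ratio of 1.29 (0.934 to 1.79). With finer clusters 7 WT cells counted here as pars tuberalis-like, with 52 Mt1 and 31 Mt2 UMIs, joined the neurons. The log2 ratios then turned from 0.06 to -0.32 for Mt1 and from 0.36 to -0.25 for Mt2.

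In tanycyte-like cells the level of Mt3 was lower in Irx5KO, and summed UMIs of Mt1 and Mt2 were lower by less. Mt3 was at 2093 CPM (1380 UMIs in 333 cells) in WT and 1321 CPM (1090 UMIs in 428 cells) in Irx5KO, 1.58-fold lower (1.46 to 1.72). Mt1 was at 2842 and 2509 CPM, a ratio of 0.883 (0.829 to 0.940), and Mt2 at 1319 and 1071 CPM, a ratio of 0.812 (0.738 to 0.892). Of 5858 genes measured, 18% were at least 1.5-fold apart, 7.95% lower in Irx5KO and 10% higher. The thinned share with an Mt3 UMI was 77.0% in WT and 63.1% of 339 Irx5KO cells. It was 79.9% and 85.0% for Mt1, higher in Irx5KO, and 61.9% and 60.2% for Mt2. Of 7 clusters of this class, 1 had an interval of the Mt1 ratio below 1 and 2 had one for Mt2.

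The size of the Mt3 difference in tanycyte-like cells moved with how the class was bounded. In 6 other settings between 39 and 78 WT cells counted here as tanycyte-like were named ependymal-like, as were between 20 and 53 Irx5KO cells. The log2 ratio was then between -0.54 and -0.41, against -0.66 here. In the setting with -0.41, classes from a score per cell, 43 WT and 74 Irx5KO tanycyte-like cells were also named astrocyte-like. With at least 800 genes per cell, 122 WT and 139 Irx5KO cells counted here as tanycyte-like were named astrocyte-like, and the log2 ratio was -0.26. In all 7 settings the difference was under 1.5-fold. Ependymal markers were counted in the tanycyte-like class at 1418 and 1053 CPM, all 7 markers above 0 in both. Astrocyte markers summed to 3599 and 4978 CPM, all 9 above 0 in both. Their part in the result was not tested. With tanycyte-like and ependymal-like cells pooled, a grouping chosen after the data were seen, Mt3 was at 2821 and 1413 CPM, a ratio of 0.501 (0.467 to 0.537). That sum also holds the smaller number of ependymal-like cells in Irx5KO. Ependymal-like cells alone had 5799 CPM in 88 WT cells and 3832 CPM (3177 to 4582) in 20 Irx5KO cells.

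Within the tanycyte-like class, 7 clusters formed without the metallothioneins were all lower in Mt3 in Irx5KO, with a geometric mean ratio of 0.632. In 6 of the 7 the upper bound of the interval lay below 1, and in the seventh it was 1. These clusters too share 2 libraries, so they do not repeat the difference. A cluster led by S100b, Tmem212, Gfap and Ccdc153, the second and last of these being ependymal markers, had the most Mt3, namely 4092 CPM (48 WT cells) and 2636 CPM (67 Irx5KO cells). The beta-tanycyte-like cluster, marked by Scn7a and Adm as are the cells that contact the median eminence, had the least, with 838 CPM in 63 WT cells and 656 CPM in 73 Irx5KO cells. The greatest difference was in a cluster led by Tnfrsf19, at 2579 and 1177 CPM, 2.19-fold lower (1.81 to 2.65), and there Mt1 was at 2655 and 1853 CPM and Mt2 at 1579 and 1001 CPM. Mt1 ratios in the other 6 clusters lay between 0.828 and 1.02. Mt1 was highest in a cluster with the stress-induced transcription factor gene Atf3 among its leading genes, at 3786 and 3745 CPM.

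**Figure D3:**
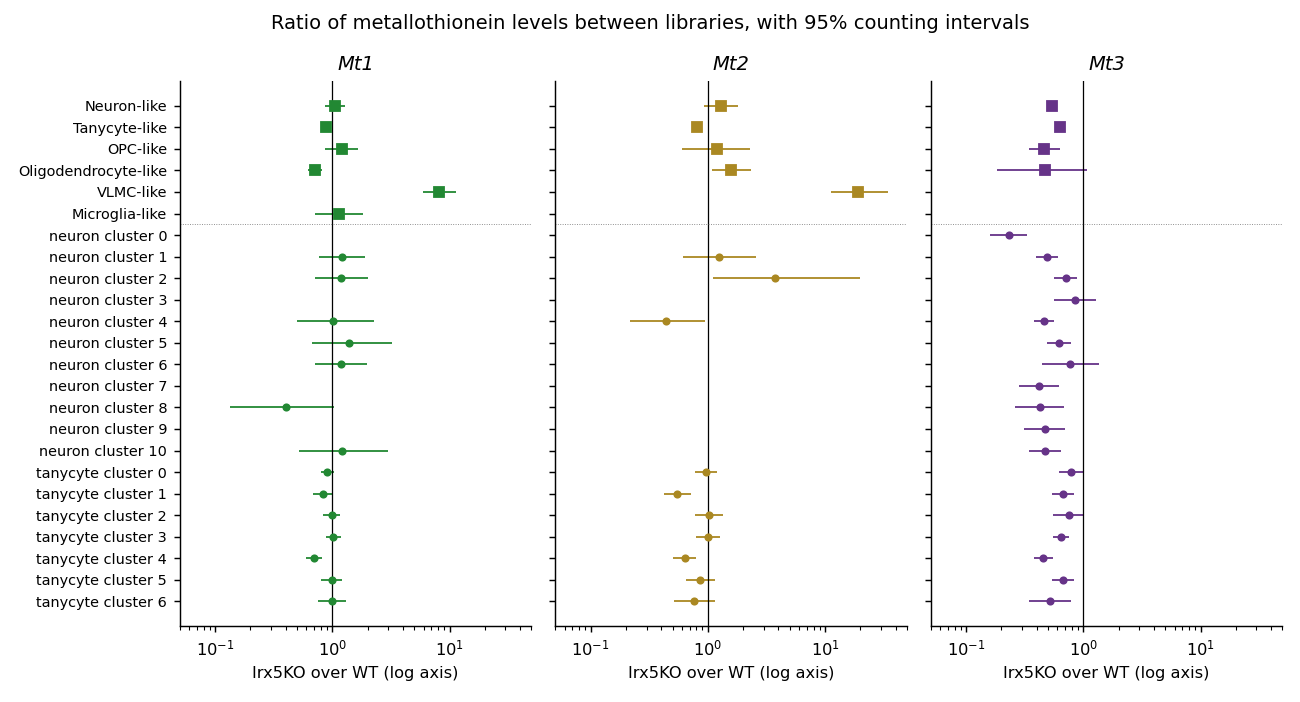
Ratio of the level in Irx5KO to that in WT (x, log axis) for Mt1, Mt2 and Mt3 in cell classes (squares) and in clusters of neuron-like and tanycyte-like cells (circles), with exact 95% counting intervals. Entries under 20 UMIs over both libraries are not drawn. The Mt3 points lie left of 1 throughout, and the Mt1 and Mt2 points lie on both sides, with VLMC-like cells at 8.08 and 18.95.

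OPC-like cells, the dividing precursors of myelin makers, showed the same split between the genes. Mt3 was at 1043 CPM (274 UMIs in 186 cells) in WT and 486 CPM (53 UMIs in 77 cells) in Irx5KO, 2.14-fold lower (1.59 to 2.94). The thinned share with an Mt3 UMI was 62.1% (53.3% to 70.4%) of 132 WT cells and 29.8% (18.4% to 43.4%) of 57 Irx5KO cells. Mt1 was at 449 and 542 CPM, a ratio of 1.21 (0.866 to 1.66), and Mt2 had 30 UMIs and 15 UMIs, too few for a ratio. Scaling by trimmed means (TMM) moves the log2 ratios of all genes by 0.17 in this class and by 0.10 in oligodendrocyte-like cells, and scaling by the median of ratios moves them by 0.12 here. Both leave Mt3 lower. Ependymal markers had 12 UMIs in WT and 1 UMI in Irx5KO OPC-like cells, with 6 and 1 of 7 above 0, and neuron markers summed to 1009 and 1735 CPM, with 7 and 7 of 8 above 0. Their part in the result was not tested. Of 1645 genes measured, 22.4% were at least 1.5-fold apart, 14.4% lower in Irx5KO and 7.96% higher. COP-like cells, the next stage, had 12 Mt3 UMIs in 20 WT cells (183 CPM) and 0 in 15 Irx5KO cells, which allows up to 114 CPM.

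In oligodendrocyte-like cells, where Mt3 was near the floor (26 UMIs and 8 UMIs), Mt1 and Mt2 differed in opposite directions. Mt1 was at 1626 CPM (662 UMIs in 192 cells) in WT and 1166 CPM (311 UMIs in 116 cells) in Irx5KO, a ratio of 0.717 (0.625 to 0.822). Mt2 was at 140.0 CPM (57 UMIs) and 221 CPM (59 UMIs), a ratio of 1.58 (1.08 to 2.32). The Mt1 difference was seen in summed UMIs, with a log2 ratio of -0.48, and not in the mean over cells of each cell's level, with -0.03. The thinned share with an Mt1 UMI was 59.3% in WT and 58.0% in Irx5KO. There were 11.6 Mt1 UMIs per Mt2 UMI in WT and 5.27 in Irx5KO (3.98 to 7.09). OPC markers summed to 1059 CPM in WT and 2115 CPM in Irx5KO in this class, with 6 and 5 of 7 markers above 0, and their part in the result was not tested. Of 2407 genes measured, 19.9% were at least 1.5-fold apart, 10.7% lower in Irx5KO and 9.18% higher.

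VLMC-like cells held the largest differences of Mt1 and Mt2 among the 6 classes compared, and both were higher in Irx5KO. In 129 WT cells Mt1 had 45 UMIs (264 CPM), and in 142 Irx5KO cells it had 395 UMIs (2133 CPM), a ratio of 8.08 (5.92 to 11.3). Mt2 had 15 UMIs (88.1 CPM) and 309 UMIs (1669 CPM), a ratio of 18.95 (11.3 to 34.3). With at least 800 genes per cell the log2 ratio of Mt2 was 5.37 in place of 4.24. Mt3 had 10 UMIs and 7 UMIs. Of 1348 genes measured, 27.2% were at least 1.5-fold apart, 15% lower in Irx5KO and 12.2% higher.

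The difference lay in a minority of the VLMC-like cells. In Irx5KO 22 of 142 cells had 6 or more Mt1 UMIs and held 87.6% of the Mt1 UMIs, and the highest cell had 67. In WT 1 of 129 cells reached 6 and none had more. The 22 cells had a median of 1273 UMIs in all genes and the other 120 a median of 1068 UMIs. Cells with any Mt1 UMI were 24.0% in WT and 36.6% in Irx5KO, so that most cells of both libraries had none. Without the cell with most UMIs in each library the log2 ratio was 2.96 for Mt1 and 4.26 for Mt2, against 3.01 and 4.24 with all cells.

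Mt1 and Mt2 were high in the same Irx5KO cells. Across the 142 cells Pearson's r of their levels was 0.59, and it was 0.033 across the 129 WT cells. In Irx5KO 29 cells had UMIs of both genes, of 63 with either. Of 3376 genes, those that next followed Mt1 across these cells were Hspa5 (r = 0.45), a chaperone of the endoplasmic reticulum, Cebpd (0.44), a transcription factor of the acute-phase response, and Serpinh1 (0.41), a collagen chaperone. The rest of the first 12 were Creld2, Tmsb10, Col4a1, Dnajb11, Xbp1, Ifitm2, Col4a2 and Hsp90b1. Tmsb10 encodes an actin-binding thymosin, and Col4a1 and Col4a2 encode basement membrane collagen. The cells share 1 library, and these genes were picked by that ranking, so the values only describe it. Between libraries Hspa5 was at 2342 and 2398 CPM, a ratio of 1.02 (0.892 to 1.17), and Cebpd at 311 and 405 CPM, a ratio of 1.30 (0.904 to 1.89). Col4a1 was at 270.0 and 621 CPM, a ratio of 2.30 (1.62 to 3.31), and Tmsb10 at 839 and 497 CPM, a ratio of 0.592 (0.450 to 0.774).

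Clusters of the VLMC-like cells placed 16 of the 22 cells together. They were in a cluster of 46 Irx5KO and 11 WT cells, formed without the metallothioneins but led by Iigp1, an interferon-induced gene, with Mt1 and Mt2 themselves among its leading genes. It held 310 of the 395 Irx5KO Mt1 UMIs and 224 of the 309 Mt2 UMIs. The same cluster had 1 Mt1 UMI and 2 Mt2 UMIs in its 11 WT cells. Another cluster of 14 Irx5KO cells had 44 Mt2 UMIs and 7 Mt1 UMIs. VLMC markers summed to 35879 CPM in the 22 cells and 49669 CPM in the other 120. Endothelial markers summed to 549 and 511 CPM there, and to 194 CPM in WT and 518 CPM in Irx5KO over the whole class. In WT 3 and in Irx5KO 6 of the 8 endothelial markers were above 0, and Pecam1 and Esam were at 0 in both. Itm2a alone gave 30 of the 33 endothelial marker UMIs in WT and 81 of the 96 in Irx5KO. Mural markers summed to 752 CPM in the 22 cells and 398 CPM in the other 120, and to 282 CPM (48 UMIs) in WT and 464 CPM (86 UMIs) in Irx5KO over the class. Of 8 mural markers 7 were above 0 in both libraries and Higd1b was at 0. Epithelial markers had 0 UMIs in the 22 cells. The part of other cell types in the result was not tested.

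**Figure D4:**
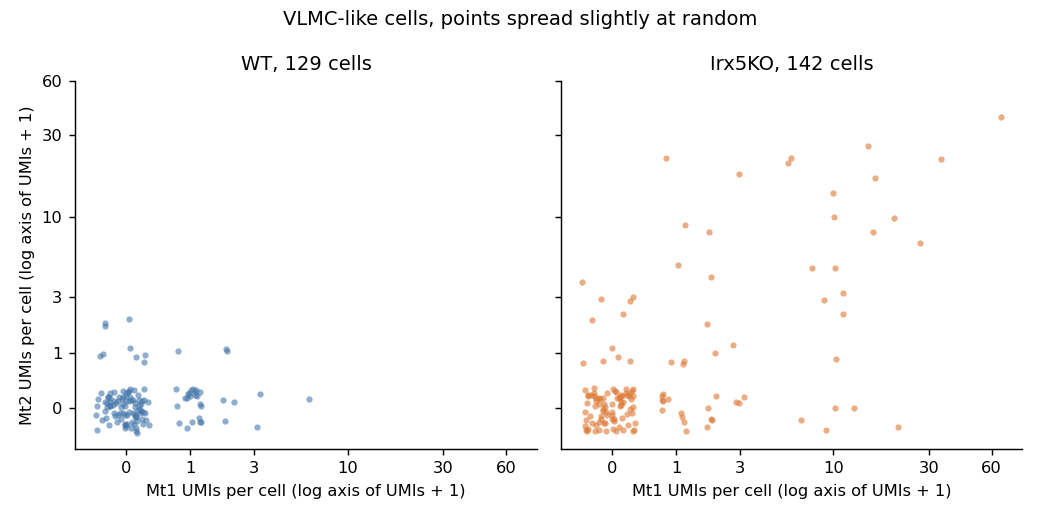
Mt1 UMIs (x) and Mt2 UMIs (y) in each VLMC-like cell, on log axes of UMIs plus 1, for 129 WT cells (left) and 142 Irx5KO cells (right), with points spread slightly at random. In WT the highest cell has 6 Mt1 UMIs, and in Irx5KO 22 cells have 6 or more, up to 67, many of them high in Mt2 as well.

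The other classes added single cells with very high counts. In endothelial-like cells Mt1 was at 679 CPM (18 UMIs in 20 cells) in WT and 7404 CPM (142 UMIs in 15 cells) in Irx5KO, but 1 Irx5KO cell held 136 of the 142 UMIs. The Mt2 level of 4328 CPM in Irx5KO likewise came from a cell with 80 of 83 UMIs. Among pars tuberalis-like cells Mt1 was at 3069.9 CPM in 88 WT cells and 4087 CPM in 46 Irx5KO cells, and Mt2 at 1409 and 2017 CPM. There 4 WT cells and 5 Irx5KO cells had 20 or more Mt1 UMIs, holding 31.1% and 51.6% of them. Epithelial-like cells had Mt1 at 2368 and 3588 CPM, Mt2 at 2148 and 2951 CPM, and Mt3 at 190.0 CPM (13 UMIs in 34 cells) and 9.37 CPM (1 UMI in 57 cells). Astrocyte-like cells had Mt1 at 1169 CPM (12 WT cells) and 3683 CPM (32 Irx5KO cells) and Mt3 at 1846 and 1469 CPM. Each of these classes holds fewer than 50 cells in at least 1 library.

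Microglia-like cells had Mt1 at 453 CPM (34 UMIs) in WT and 515 CPM (48 UMIs) in Irx5KO, a ratio of 1.14 (0.717 to 1.82). In WT 1 cell held 22 of the 34 UMIs, and without the highest cell of each library the log2 ratio was 1.52 in place of 0.18. Tanycyte markers summed to 1546 CPM in WT and 204 CPM in Irx5KO microglia-like cells, with 5 and 4 of 9 markers above 0 and Col23a1, Scn7a and Frzb at 0 in both. Their part in the result was not tested. Of 472 genes measured, 32% were at least 1.5-fold apart, 14.8% lower in Irx5KO and 17.2% higher.

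Across classes Mt1 and Mt2 followed each other more closely than either followed Mt3. Over 12 columns, the 6 classes with ratios in both libraries, Pearson's r of log2 of CPM plus 10 was 0.84 between Mt1 and Mt2, -0.016 between Mt1 and Mt3 and 0.22 between Mt2 and Mt3. Those classes leave out ependymal-like cells, where Mt1 and Mt3 were both highest in WT. Over all 13 classes in WT, a choice made after the data were seen, r was 0.91 between Mt1 and Mt2, 0.48 between Mt1 and Mt3 and 0.55 between Mt2 and Mt3, and in Irx5KO it was 0.92, 0.46 and 0.38. These columns share libraries and depth, so r is a description. Over the 12 columns, among 3939 genes, the one most like Mt1 was Ech1 (0.92), a mitochondrial enzyme of fatty acid oxidation, followed by Aldh9a1 (0.84), an aldehyde dehydrogenase, Mt2, Hist1h2bc (0.84) and Wls (0.83), a carrier of Wnt proteins. Most like Mt2 were Aldh9a1 (0.86), Ech1 (0.85), Mt1, the sodium channel gene Scn7a (0.82) and Ift20 (0.82), a gene of cilia. Mt3 was most like Six3 (0.96), a homeobox gene of the forebrain, Pnisr (0.96), the cell adhesion gene Nrcam (0.96), the splicing factor gene Srsf10 (0.95) and Lmo3 (0.94). Six3 itself was at 194 and 126 CPM in neuron-like cells and at 557 and 486 CPM in tanycyte-like cells, in WT and Irx5KO.

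Within single cells the link of Mt1 with Mt2 differed between classes. Pearson's r across cells was 0.35 in WT and 0.32 in Irx5KO tanycyte-like cells, 0.33 and 0.33 in oligodendrocyte-like cells and 0.55 in WT pars tuberalis-like cells. In WT ependymal-like cells it was 0.071 and in WT OPC-like cells 0.029. For Mt2 with Mt3 it was 0.41 in those ependymal-like cells and 0.20 and 0.19 in tanycyte-like cells. For Mt1 with Mt3 it was 0.23 and 0.13 in tanycyte-like cells and 0.013 and -0.054 in neuron-like cells. Cells of 1 class share a library, and deeper cells have more of each gene, so these values are descriptions too.

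Other genes that handle zinc, copper and iron, or respond to stress, were counted by list. Of 21 genes of zinc handling, 17 were measured over all cells, and 2 were at least 1.5-fold higher and 0 lower in Irx5KO, where 12% of all genes were higher and 9.85% lower. Their median log2 ratio was 0.25, and that of all genes was 0.05. In neuron-like cells 1 of 12 was past 1.5-fold, against 18.9% of all genes, the zinc exporter gene Slc30a4, at 10.5 and 19.1 CPM, a ratio of 1.82 (1.07 to 3.24). In tanycyte-like cells 0 of 7 were, against 18%, and the importer gene Slc39a12 was at 80.4 and 94.5 CPM. Over all cells Slc30a9 had a ratio of 1.41 (1.24 to 1.60) and Slc39a6 of 1.24 (1.08 to 1.41).

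Of 10 copper genes, 9 were measured over all cells, with 1 at least 1.5-fold higher in Irx5KO and 0 lower. The shares of all genes were 12% and 9.85%. The 2 with most UMIs, Prnp and Sod1, had ratios of 1.21 (1.15 to 1.27) and 1.05 (0.996 to 1.11). Cox17, the copper chaperone for cytochrome c oxidase, was lower in Irx5KO in 4 classes. It was at 606 and 403 CPM in neuron-like cells, a ratio of 0.664 (0.612 to 0.721), and at 369 and 227 CPM in tanycyte-like cells, a ratio of 0.615 (0.505 to 0.747). In OPC-like cells its ratio was 0.504 (0.261 to 0.905) and in oligodendrocyte-like cells 0.619 (0.448 to 0.846). Atp7a, the copper pump, was at 5.52 and 13.9 CPM in neuron-like cells, a ratio of 2.52 (1.25 to 5.63). In those cells 9 copper genes were measured, 1 at least 1.5-fold higher and 2 lower, against 12.4% and 6.48% of all genes. In OPC-like cells 2 of 5 were lower and 0 higher, against 14.4% and 7.96%. In tanycyte-like cells 1 of 7 was lower and 0 higher, against 7.95% and 10%. In oligodendrocyte-like cells 1 of 5 was lower and 0 higher, against 10.7% and 9.18%. In VLMC-like cells Sod1, the copper-zinc superoxide dismutase, was at 599 and 367 CPM, the 1 gene past 1.5-fold of 4 measured, against 27.2% of all genes.

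Iron genes gave 1 at least 1.5-fold higher and 1 lower of 9 measured over all cells, against 12% and 9.85% of all genes. Trf, the transferrin gene of oligodendrocytes, was at 510.3 and 231 CPM over all cells, a ratio of 0.453 (0.421 to 0.488), but at 4564 and 3708 CPM within oligodendrocyte-like cells, a ratio of 0.813 (0.752 to 0.878). Tfrc, the transferrin receptor gene, was at 19.9 and 42.4 CPM in neuron-like cells, a ratio of 2.14 (1.47 to 3.18). Fth1, the ferritin heavy chain gene, was at 4624 and 7596 CPM in microglia-like cells, a ratio of 1.64 (1.44 to 1.87).

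Of 17 genes of the Nrf2 pathway and redox balance, 17 were measured over all cells, with 0 at least 1.5-fold higher and 1 lower in Irx5KO, against the same shares. In tanycyte-like cells Hmox1, the haem oxygenase gene, was the 1 of 14 past 1.5-fold (18% of all genes), at 118 CPM (78 UMIs) in WT and 17.0 CPM (14 UMIs) in Irx5KO, 6.97-fold lower (3.92 to 13.3). Of 8 measured in oligodendrocyte-like cells, 2 were at least 1.5-fold higher in Irx5KO and 0 lower, against 9.18% and 10.7% of all genes. Gclm had a ratio of 1.74 (1.17 to 2.597) there and Cat of 1.53 (0.906 to 2.57), an interval that includes 1. OPC-like cells had 1 of 5 higher and 2 lower, against 7.96% and 14.4%, all with intervals that include 1. Past 1.5-fold were 0 of 12 in neuron-like and 0 of 2 in microglia-like cells, against 18.9% and 32%. In VLMC-like cells 0 of 4 measured genes were past 1.5-fold, against 27.2% of all genes, too few genes to read anything from. Prdx1, a peroxiredoxin gene, had a ratio of 1.28 (0.985 to 1.66) there.

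Of 11 glucocorticoid-responsive genes, 10 were measured over all cells, with 1 at least 1.5-fold higher in Irx5KO and 1 lower. The shares of all genes were 12% and 9.85%. In neuron-like cells 2 of 8 were higher and 0 lower, against 12.4% and 6.48% of all genes. In tanycyte-like cells 0 of 5, in microglia-like cells 0 of 2 and in OPC-like cells 0 of 1 were past 1.5-fold. The shares of all genes there were 18%, 32% and 22.4%. In oligodendrocyte-like cells 3 of 5 were at least 1.5-fold higher in Irx5KO and 0 lower, against 9.18% and 10.7% of all genes there. Sgk1, a kinase gene, was at 51.6 CPM (21 UMIs) and 416 CPM (111 UMIs), a ratio of 8.07 (5.03 to 13.5), Tsc22d3 at 58.9 and 131 CPM, a ratio of 2.23 (1.29 to 3.91), and Nfkbia at 54.0 and 105 CPM, a ratio of 1.94 (1.07 to 3.56). The median log2 ratio of the 5 was 0.96, and that of all genes in the class was -0.01. In VLMC-like cells 2 of 4 measured were at least 1.5-fold lower and 0 higher, against 15% and 12.2% of all genes. These were the receptor gene Nr3c1, with a ratio of 0.651 (0.390 to 1.07), and Ddit4, with a ratio of 0.654 (0.384 to 1.10), both with intervals that include 1.

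Irx5 lies on the same chromosome, from 92357625 to 92376286, so the genes between it and the metallothioneins were measured as well. From Irx5 to 500 kb past Mt1 there are 66 annotated genes, of which 19 had at least 50 UMIs over all cells. Leaving out the metallothioneins, 3 of 16 were at least 1.5-fold lower in Irx5KO and 3 higher, against 9.85% and 12% of all genes. Ces1d, Cpne2 and Pllp were lower, with ratios of 0.629 (0.528 to 0.750), 0.637 (0.505 to 0.802) and 0.484 (0.434 to 0.540). Ces1d was among the 10 leading genes of pars tuberalis-like cells, which made up 4.78% of WT and 2.36% of Irx5KO cells. The part of that share in its ratio was not tested. Gm3272, a processed pseudogene whose reads may come from a copy elsewhere, Ogfod1 and Bbs2 were higher, with ratios of 2.37 (2.03 to 2.77), 1.67 (1.36 to 2.06) and 1.80 (1.32 to 2.48). Bbs2, a gene of cilia on the minus strand, lies between Ogfod1 and the metallothioneins.

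Mt4, the metallothionein gene of squamous epithelium that starts before Mt3, had 0 UMIs in WT and 2 UMIs in Irx5KO. Pllp, a myelin gene, was lower over all cells at 225.5 and 109 CPM but had ratios of 1.13 (0.981 to 1.30) in oligodendrocyte-like and 1.22 (0.996 to 1.49) in OPC-like cells. In neuron-like cells 1 of 12 neighbours was at least 1.5-fold lower (Cpne2, 0.665) and 2 higher, against 6.48% and 12.4% of all genes. In tanycyte-like cells 1 of 8 was lower (Nudt21, 0.634) and 1 higher, against 7.95% and 10%.

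**Figure D5:**
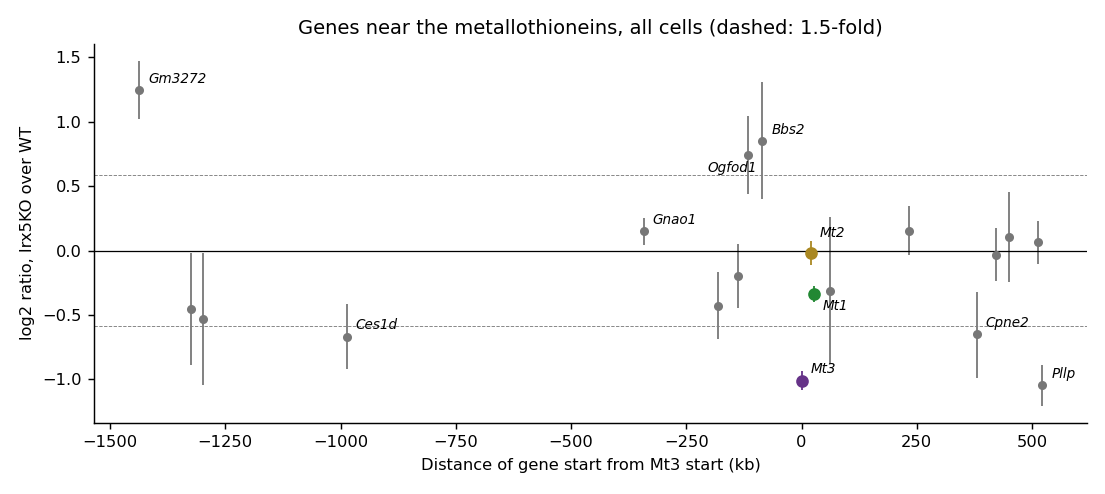
Log2 ratio of the level in Irx5KO to that in WT over all cells (y) against the distance of each gene's start from that of Mt3 in kb (x), with 95% counting intervals. Coloured points are Mt1, Mt2 and Mt3, grey points the 16 other genes with at least 50 UMIs, and dashed lines mark 1.5-fold. Mt3 (-1.01) and Pllp (-1.05) are lowest, and genes on both sides of Mt3 lie above and below 0.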

How the data were processed

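Cells of 2 pooled Drop-seq libraries were compared, 1 WT and 1 Irx5KO. The authors deposited the WT table as UMI counts per gene and barcode (2800 barcodes, 28008 genes), as its whole values show. They deposited the Irx5KO table (2350 barcodes, 26840 genes) and a merged table of both as natural log values, the ln of each cell's scaled count (10000 in all) after adding 1. Per the submitters' processing notes, bcl2fastq, Picard, STAR 2.6.0b, Seurat 3 and the mm10 build were used, with settings that no source used here gives. Raw counts had been assumed for all tables, so the natural log values were inverted, and 100% of them came out whole within 1e-06. The merged table held the same counts (0 of 4275938 WT UMIs differed) and lacked 173 WT barcodes. The merged table served only as an alternative.

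Barcodes entered with 500 genes or more and no more than 20% mitochondrial UMIs. Scrublet (in scanpy 1.11.5, expected rate 0.05) removed 10 of 1851 WT cells (0.540%) and 23 of 1972 Irx5KO cells (1.17%), so that doublets may remain. Kept cells held 587 to 17968 UMIs in WT and 587 to 14342 in Irx5KO. Leiden clusters (2000 variable genes without Mt1, Mt2 and Mt3, 30 components, 15 neighbours, resolution 1) were named from marker lists: a mean log2 score of at least 1, at least 3 markers 2-fold above the median cluster, then most markers among the 10 leading genes. That scoring was set after the clusters were seen, and shares and class values may differ from the study's own through these rebuilt names. The members, marker lists and gene lists were chosen with earlier results of these data known.

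UMIs were summed per class and library (numpy 2.4.6, scipy 1.17.1, pandas 2.3.3). Levels have exact Poisson intervals, shares Clopper-Pearson intervals and ratios conditional binomial intervals, all at 95%. A count of 0 has the limit of 3 counts. A gene was measured in a class with at least 50 UMIs over both libraries and 50 cells in each, and called apart at 1.5-fold. Thinning drew 1000 UMIs per cell and left shallower cells out. Named genes were the members and Mt4, the 5 genes most like each member, up to 3 of each list that were 1.5-fold apart or else the 2 with most UMIs, and up to 6 neighbours. Genes following Mt1 across VLMC-like cells were chosen after their values were seen. Alternatives changed the filters, doublet removal, table, resolution, naming, scaling and averaging. The ratio code was tested on simulated data. Sequences came from GENCODE vM21 (GRCm38) and RefSeq promoter windows (GRCm38.p6), with alignments by Biopython 1.88.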

Additional observations from a re-analysis of the deposited data

Results flagged for a closer look

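Mt1 and Mt2 differed between the libraries in opposite directions in different classes, each with an interval of the ratio on 1 side of no difference. For Mt1 the ratio of Irx5KO to WT was 8.08 in VLMC-like cells, 0.883 in tanycyte-like cells and 0.717 in oligodendrocyte-like cells. For Mt2 it was 18.95 in VLMC-like cells, 1.58 in oligodendrocyte-like cells and 0.812 in tanycyte-like cells. All of these are ratios of summed UMIs. By the mean over cells of each cell's level, the log2 ratio of Mt1 in oligodendrocyte-like cells was -0.0309. In tanycyte-like cells the thinned share with an Mt1 UMI was 79.9% in WT and 85.0% in Irx5KO. With 1 library per genotype the difference between classes was not tested.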

How the results depend on the processing

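With 1 pooled library per genotype, a difference between the genotypes cannot be told apart from one between 2 libraries, dissections or pools, and counting intervals do not cover those. Few cells limit the ependymal-like, astrocyte-like, COP-like, endothelial-like, mural-like, pars tuberalis-like and epithelial-like classes. No paired analysis was possible because each genotype has 1 library.

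Across all alternatives the log2 ratio of Mt3 ran from -0.92 to -0.82 in neuron-like cells, from -1.27 to -0.96 in OPC-like cells and from -1.06 to -0.96 over all cells, and that of Mt1 in VLMC-like cells from 2.88 to 3.04. Of 183 alternative log2 ratios 160 stayed within the counting interval of the reported value. Mt3 in tanycyte-like cells moved most often, from -0.66 to -0.52 with at least 200 genes per cell, -0.26 with at least 800, -0.50 with at most 10% mitochondrial UMIs, -0.48 with doublets kept, -0.54 at resolution 2, -0.41 with classes from a score per cell and -0.50 with the metallothioneins among the variable genes. With at least 200 genes the log2 ratio in neuron-like cells was -0.33 for Mt1 and -0.27 for Mt2, and at resolution 2 it was -0.32 and -0.25. With at least 800 genes it was -0.30 for Mt1 and -0.23 for Mt2 in neuron-like cells. That filter also gave Mt1 1.36 in microglia-like, -0.71 in oligodendrocyte-like and -0.0743 in tanycyte-like cells and -0.44 over all cells, and Mt2 5.37 in VLMC-like cells. The mean over cells gave Mt1 0.92 in microglia-like cells, -0.0309 in oligodendrocyte-like cells and 0.000499 over all cells, and Mt2 0.22 over all cells. Without the cell with most UMIs, a setting added after seeing the data, Mt1 in microglia-like cells was 1.52. Some of the cells that changed class are counted above, and the cause of these shifts was not tested.

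The number of genes at least 1.5-fold apart followed the number tested. With at least 20 UMIs it was 592 in microglia-like, 3541 in neuron-like, 1529 in OPC-like, 1675 in oligodendrocyte-like, 2764 in tanycyte-like and 1291 in VLMC-like cells, against 151, 2063, 368, 478, 1054 and 367 with at least 50. With at least 100 UMIs it was 56, 1158, 92, 158, 420 and 125, and 2081 over all cells against 3138. With at least 800 genes per cell it was 92 in microglia-like and 211 in VLMC-like cells.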

Other observations

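Barcodes with at least 200 but under 500 genes, left out of the cell classes, held the metallothioneins as well. In 870 such WT barcodes Mt3 was at 786 CPM (314 UMIs), and in 378 Irx5KO barcodes at 463 CPM (92 UMIs). Mt1 was at 998 and 1223 CPM there, and Mt2 at 478 and 498 CPM.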
